A study of Homo sapiens with 8 samples.

Results

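RNA recovered on streptavidin beads with a biotin-carrying miR-23b duplex was compared with the input RNA of cells that had received the same duplex, to ask which transcripts were held with this miRNA. The cells were HEK293T, an established human line derived from embryonic kidney that carries the SV40 large T antigen. Arrays were chosen by their titles, which gave 2 pull-down arrays and 2 input arrays of miR-23b, 4 of the 8 arrays in the series, and same-numbered arrays were paired. Both groups shared the line, the medium (DMEM), 200 pmol of synthetic duplex delivered with HiPerFect and a harvest at 24 h, and they differed in that input RNA had not passed over beads. The remaining 4 arrays held a pull-down and an input of miR-27a, made in the same way, and served for the estimate of spread and as the comparison miRNA. Untransfected cells and a duplex without targets were not analysed here. The labels do not say which strand of the duplex carried the biotin or whether numbered replicates were separate cultures, and the p-values then reflect no more than the scatter of these arrays, possibly a technical one.

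MicroRNAs guide Argonaute proteins to messenger RNAs, mainly by pairing of the seed, a short stretch near the 5′ end of the miRNA, with sites in the 3′ untranslated region. Argonaute then recruits TNRC6 proteins, which bring deadenylases and lower translation and stability of the target. A transcript that is held by the duplex should be over-represented in the pull-down relative to the input, whereas a pull-down also contains RNA that stays on beads for other reasons. The miR-23 and miR-27 genes lie side by side in shared clusters, and miR-23 has been studied for its action on TGF-beta signalling and apoptosis.

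The mature sequences are shown because the seed is the part of the duplex expected to choose the targets. They were taken from RefSeq (GRCh38.p14), and capitals mark the seed, bases 2 to 8. For miR-23b both mature strands in RefSeq are given, which need not be those of the synthetic duplex. The 3p strand lies at chr9:95085265-95085287 (plus strand), the 5p strand at chr9:95085227-95085248 (plus strand), miR-23a-3p at chr19:13836595-13836615 (minus strand) and miR-27a-3p at chr19:13836447-13836467 (minus strand).
hsa-miR-23b-3p: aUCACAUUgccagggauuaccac
hsa-miR-23b-5p: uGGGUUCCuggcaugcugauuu
hsa-miR-23a-3p: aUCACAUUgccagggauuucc
hsa-miR-27a-3p: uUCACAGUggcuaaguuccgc
In RefSeq, 3 mature miRNAs carried the seed of miR-23b-3p, and a perfect site for it reads AAUGUGA in the messenger RNA. The seed of miR-27a-3p begins with the same 5 bases, up to position 6, differs at the next base and ends in the same base. Its site reads ACUGUGA. The comparison miRNA is thus a different miRNA with a related seed and not a control without targets.

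Values are the deposited log2 values of 14479 probes, and a gene is represented by the probe with the highest mean over 8 arrays, which gave 9535 genes. Array medians lay between 9.09 and 9.12, so a change is measured against the rest of the array and says nothing of the amount of RNA on the beads. Because the transformation behind the scale is not given in the sources used here, folds are apparent folds. The 2 pull-down arrays correlated at 0.977 over probes and the 2 inputs at 0.981, against 0.930 to 0.951 for a pull-down with an input. Input 1 of miR-23b was closer to input 1 of miR-27a (0.995) than to input 2 of its own miRNA, as was input 2 to its counterpart (0.996). Of 15 genes known from HEK293 cells, such as LIN28B, VIM and IGF2BP2, 12 were present, with a median change of -0.07. Of these, 2 were higher (16.7%) and 4 lower (33.3%), beside 24.5% and 20.2% of all genes. Without the replicate block 1 was higher and 2 were lower. Only 1 of 12 markers of kidney epithelium (EPCAM, input level 7.70), 1 of 9 of fibroblasts (COL1A1, 7.67) and 1 of 11 of blood and endothelium (CD14, 7.57) had a probe, each near the lowest values of the arrays.

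The pull-down differed widely from its input. By limma with the replicate number as a block, 6389 probes passed at an adjusted p under 0.05 (44.1%), 3194 higher (22.1%) and 3195 lower (22.1%) in the pull-down. By gene, 4261 passed (44.7%), of which 2338 were higher (24.5%) and 1923 lower (20.2%). Without the block, which counts the shift shared by same-numbered arrays as spread, 3513 probes passed (24.3%), 1741 higher (12%) and 1772 lower (12.2%), and all 3513 were among the 6389. By gene that fit gave 2317 (24.3%), 1276 higher (13.4%) and 1041 lower (10.9%). Without input 2 of miR-23b the blocked fit gave 1657 probes higher and 1767 lower. Both pull-downs lay above both inputs for 3079 genes (32.3%) and below them for 2755 (28.9%), together 5834 (61.2%).

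Most changes were small. The genes between the 25% and the 75% percentile changed by -0.27 to 0.36, the 5% to 95% range was -0.85 to 0.92, and the median was 0.02. Among genes that passed, the median size of the change was 0.62 and the smallest was 0.30. An apparent 2-fold change was reached by 336 genes that rose and 260 that fell. The median SE over genes was 0.13 (0.17 without the block), and 2 arrays a group limit the precision. Over genes, which are not independent replicates, the differences of pair 1 and pair 2 correlated at 0.845, and 7698 genes (80.7%) had the same sign in both. Both differences exceeded 1 for 199 genes and lay below -1 for 173, and for 2 genes both lay below -2.

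**Figure D1:**
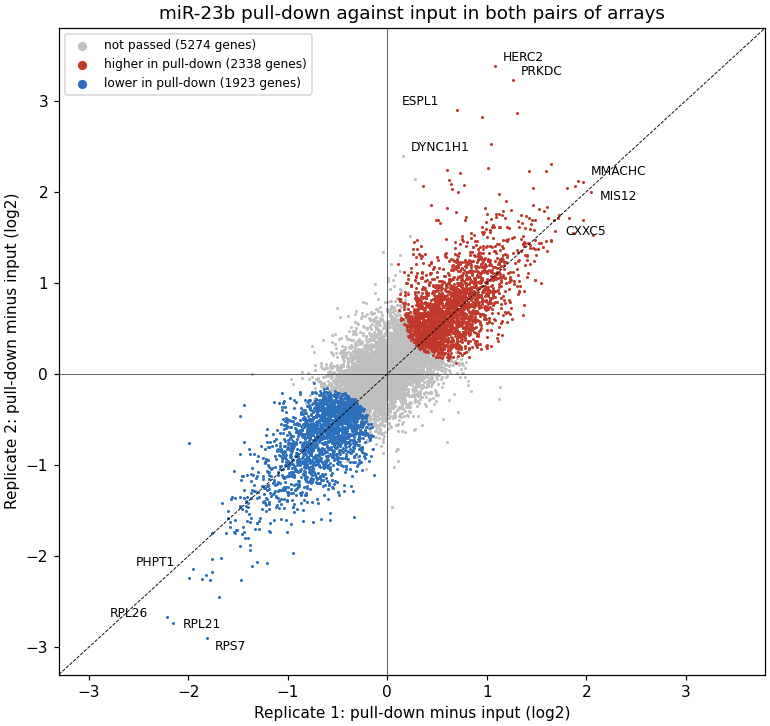
Pull-down minus input (log2) of 9535 genes in replicate 1 (x axis) and replicate 2 (y axis), coloured by the call of the paired limma fit, with equality dashed. Genes follow the diagonal in both directions, while HERC2, PRKDC, ESPL1 and DYNC1H1 lie far above it, with the larger difference in replicate 2.

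The strongest concordant rises came from genes of varied function, ranked by the smaller of their 2 paired differences. MIS12, a component of the kinetochore that links chromosomes to the spindle, had values of 11.22 and 10.75 in the inputs and 13.26 and 12.75 in the pull-downs. MMACHC, which processes cobalamin for use as a cofactor, measured 9.38 and 9.69 in the inputs and 11.35 and 11.80 in the pull-downs. Every pull-down value of these genes exceeded every input value by more than the distance between replicates. The change was 2.02 ± 0.13 (SE, an apparent 4.06-fold, adjusted p = 6.72e-05) for MIS12 and 2.04 ± 0.12 (4.10-fold, adjusted p = 6.72e-05) for MMACHC. ACACA, the acetyl-CoA carboxylase that commits carbon to fatty acid synthesis, rose from 10.51 and 10.83 to 12.15 and 13.13, with a wider gap between its pull-downs (change 1.98 ± 0.19), and its second probe changed by 1.89. KLHL23, a member of the Kelch-like family, rose from 7.87 and 8.31 to 9.76 and 10.37. METTL16, an RNA methyltransferase that acts on U6 snRNA, rose from 7.72 and 7.92 to 9.32 and 10.14. These started near the dim end of the arrays, in contrast to MIS12 and ACACA. The rises were not particular to miR-23b. With miR-27a MMACHC changed by 2.36, ACACA by 2.13, KLHL23 by 2.91 and METTL16 by 2.97, above their miR-23b changes, and MIS12 by 1.43.

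Regulators of RNA, growth and survival were among the other rises. PUM2, a Pumilio protein that represses messenger RNAs through their 3′ untranslated regions, measured 10.33 and 9.92 in the inputs and 12.04 and 11.64 in the pull-downs. CXXC5, a CXXC zinc finger protein linked to Wnt signalling, measured 10.98 and 11.03 against 12.71 and 12.78. CCN2, the secreted connective tissue growth factor, measured 9.79 and 9.30 against 11.76 and 10.99. The 3 genes separated the groups fully, with changes of 1.72 ± 0.13, 1.74 ± 0.11 and 1.83 ± 0.16. A second probe changed by 1.01 for CXXC5 and 1.66 for CCN2. TOPBP1, which activates the checkpoint kinase ATR, changed by 1.77 ± 0.14, and NNT, the mitochondrial transhydrogenase that makes NADPH, by 1.68 ± 0.11. BAG4, a co-chaperone that restrains death receptors, changed by 1.68 ± 0.13, with 0.47 at its second probe. The rest of the 16 were PLCXD1 (2.01), BRI3BP (1.92), SPRYD7 (1.72), RAB2B (1.67) and PKIA (1.63), the inhibitor of protein kinase A. BRI3BP had 3 further probes, which changed by 0.12, -0.51 and 0.08, so its rise belongs to 1 probe of 4. With miR-27a PLCXD1 changed by 2.65, BRI3BP by 2.37, SPRYD7 by 2.43 and RAB2B by 1.94, above their miR-23b changes. The changes with miR-27a were smaller for TOPBP1 (1.68), CCN2 (1.47), PKIA (1.07), PUM2 (1.00), BAG4 (0.74) and NNT (0.53), and negative for CXXC5 (-0.30).

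The 16 strongest falls were led by ribosomal protein genes. RPL26, a protein of the large ribosomal subunit, measured 12.60 and 12.83 in the inputs and 10.39 and 10.16 in the pull-downs. RPS7, of the small subunit, measured 10.55 and 11.72 in the inputs and 8.74 and 8.83 in the pull-downs. The inputs of RPS7 differed by more than its pull-downs did, and both genes separated the groups. The changes were -2.44 ± 0.14 (adjusted p = 6.72e-05) and -2.35 ± 0.24 (adjusted p = 0.00018). RPL21 (-2.44), RPS28 (-2.12), RPL29 (-2.07) and RPL36A (-1.68) fell too, as did RPL23AP87 (-1.97), a processed pseudogene of RPL23A. Transcripts of ribosomal protein pseudogenes can bind the same probes, so the source of these values is uncertain. The same holds for PTTG3P (-1.90), a close copy of the securin gene PTTG1. With miR-27a these genes fell as well, RPL26 by 2.43, RPS7 by 2.07, RPL21 by 1.96 and RPS28 by 1.98. RPL29 fell by 2.30, RPL36A by 1.80, RPL23AP87 by 1.69 and PTTG3P by 2.00 with miR-27a.

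Outside the ribosome, PHPT1, the phosphohistidine phosphatase, measured 11.56 and 11.69 in the inputs and 9.61 and 9.55 in the pull-downs, a change of -2.04 ± 0.12. NDUFA7, an accessory subunit of respiratory complex I, measured 11.05 and 11.26 against 9.27 and 9.002 (-2.02 ± 0.16). APOO, which belongs to the complex that shapes mitochondrial cristae, measured 10.79 and 10.59 against 9.03 and 8.85 (-1.75 ± 0.11). In these genes replicates differed by a small part of the change. BLOC1S1, of the lysosome-related organelle complex BLOC-1, changed by -2.01, UTP11, which takes part in assembly of the small ribosomal subunit, by -1.84, and COMMD3, of the Commander complex in endosomal recycling, by -1.59. SERF2 changed by -2.06 at the probe used and by 0.02 at its second probe, and S100A13, a calcium-binding protein, by -1.63 at the probe used and by -1.04 and -0.18 at the others. With miR-27a the changes were -1.49 for PHPT1, -0.67 for NDUFA7, -1.64 for APOO and -1.83 for BLOC1S1. They were -1.42 for UTP11, -1.34 for COMMD3, -1.97 for SERF2 and -1.35 for S100A13. The 32 genes each passed without any one of the 8 arrays and without the block.

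**Figure D2:**
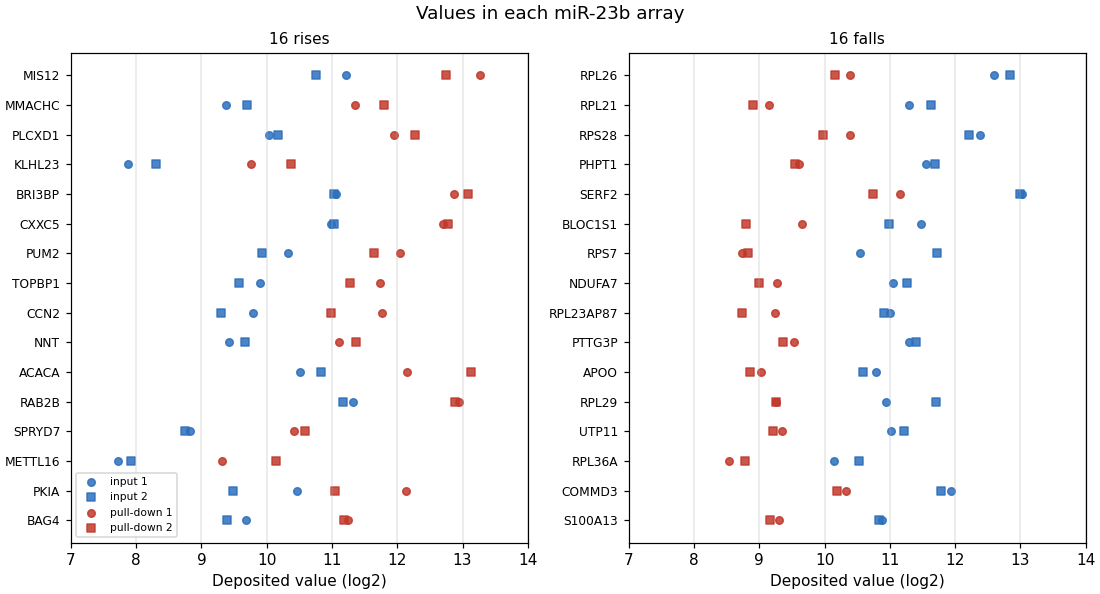
Deposited log2 values (x axis) of the 16 leading rises and 16 leading falls in each of the 4 miR-23b arrays, with inputs in blue, pull-downs in red, replicate 1 as circles and replicate 2 as squares. Pull-down and input values do not overlap for any of these genes, which were chosen for agreement of both pairs.

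Among 27 measured genes that have been reported as targets of miR-23, 13 rose and 3 fell, with a median change of 0.39 against 0.02 over all genes. The median was lower within each pair, at 0.26 in pair 1 and 0.30 in pair 2, against -0.002 and 0.05 over all genes. With 1 array left out it ran from 0.21 to 0.39. The share that rose was 48.1%, beside 24.5% of all genes, and the share that fell was 11.1%, beside 20.2%. VHL, the substrate receptor of the ubiquitin ligase that marks hypoxia-inducible factors, measured 11.83 and 11.78 in the inputs and 13.31 and 13.46 in the pull-downs. PAK2, a kinase of the cytoskeleton and of cell survival, measured 9.65 and 9.79 against 11.25 and 11.24. Both genes separated the groups by more than 1 log2 unit, with changes of 1.58 ± 0.13 (adjusted p = 8.42e-05) and 1.53 ± 0.17 (adjusted p = 0.000245). MAP3K1, a kinase upstream of JNK, changed by 0.83 ± 0.12, FOXO3, a transcription factor of stress and apoptosis, by 0.81 ± 0.12, and XIAP, an inhibitor of caspases, by 0.80 ± 0.14. The pull-downs of XIAP were 8.61 and 8.29, over inputs of 7.59 and 7.71.

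In TGF-beta signalling, the receptor TGFBR2 changed by 0.50 ± 0.13. The receptor-activated SMAD5 changed by 0.59 ± 0.14, SMAD2 by 0.54 ± 0.14 and SMAD9 by 0.71 ± 0.13, and the shared partner SMAD4 by 0.53 ± 0.14. SMAD3 (0.24, adjusted p = 0.140) and the inhibitory SMAD6 (0.19, 0.268) and SMAD7 (0.19, 0.239) did not pass. Of these, SMAD2, SMAD6, SMAD7 and SMAD9 are not among the 27. HMGB2, a chromatin protein, changed by 0.56, APAF1, the core of the apoptosome, by 0.49, the receptor kinase MET by 0.43, the coactivator PPARGC1A by 0.42 and the NF-kappa-B kinase CHUK by 0.39. HES1, a repressor under Notch control, fell by 0.77, the GTPase RRAS2 by 0.62 and FBXO32, a ubiquitin ligase subunit known from muscle wasting, by 0.53. VHL had 3 probes, and FOXO3, HMGB2, TGFBR2, FBXO32 and RRAS2 had 2 each. Only the probe with the highest mean is given for these genes.

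Several of the smaller changes rested on single arrays. Without pull-down 1 of miR-23b, 6 of the 27 rose. The highest adjusted p with 1 array left out was 0.403 for APAF1, 0.141 for CHUK, 0.345 for MET, 0.410 for PPARGC1A, 0.133 for SMAD4, 0.107 for SMAD5 and 0.109 for TGFBR2, each lost without pull-down 1 and without at least 1 other miR-23b array. It was 0.149 for RRAS2, lost without pull-down 2 or input 2, 0.0963 for FBXO32, lost without input 2, and 0.120 for SMAD2, lost without pull-down 1 or input 2. Without the block 9 rose and 2 fell, and APAF1, CHUK, MET, PPARGC1A and RRAS2 did not pass, nor did SMAD2 outside the list.

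With miR-27a the same 27 genes had a median change of 0.20, near the lowest miR-23b median with 1 array left out (0.21). VHL changed by 2.31 and XIAP by 1.36 with miR-27a, values above those with miR-23b. The difference between the miRNAs passed for 1 of the 27, HMGB2, beside 4.68% of all genes. Its values were 11.41 and 11.63 in the miR-23b inputs and 12.04 and 12.12 in the pull-downs, and with miR-27a it changed by -0.64. Without the block this difference did not pass (adjusted p = 0.0993).

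**Figure D3:**
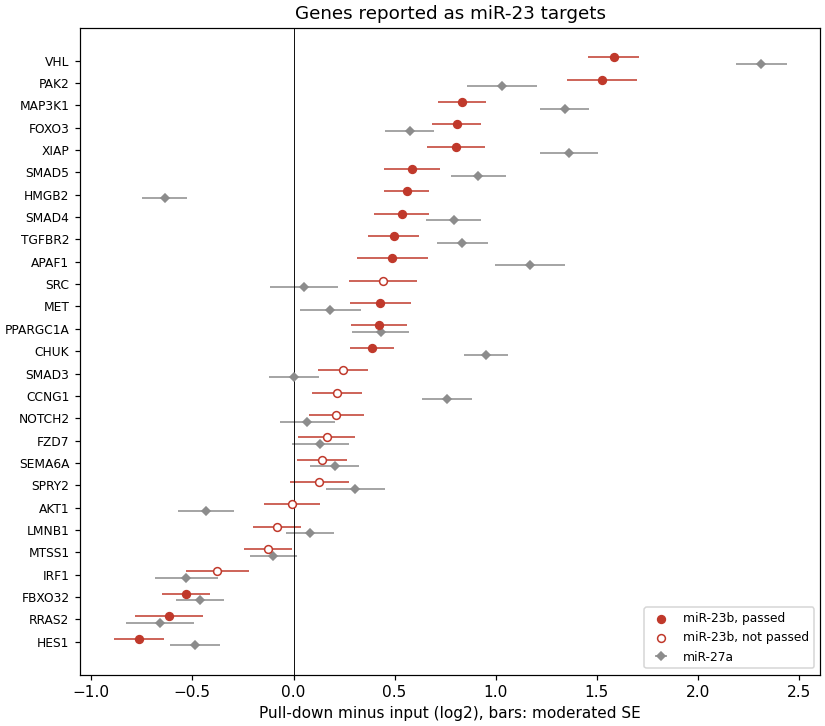
Log2 change (x axis, with moderated SE) of the 27 measured genes reported as miR-23 targets, for miR-23b (red, filled where it passed) and miR-27a (grey). VHL and PAK2 lead with miR-23b at 1.58 and 1.53, and HMGB2 is the gene whose changes with the miRNAs lie on opposite sides of 0 and differ past the threshold with the block.

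Of 21 genes of the RNA silencing machinery 9 rose (42.9%, beside 24.5% of all genes) and 2 fell (9.52%, beside 20.2%), with a median of 0.38, and 10 did not pass. TNRC6A, a scaffold that ties Argonaute to deadenylases, measured 9.41 and 9.43 in the inputs and 10.48 and 11.04 in the pull-downs (1.34 ± 0.20). DICER1, the nuclease that cuts miRNA precursors, measured 10.09 and 10.15 against 11.12 and 10.93 (0.90 ± 0.12). LIN28B, which blocks let-7 maturation, measured 11.97 and 11.71 against 12.77 and 12.64 (0.87 ± 0.12). None of these overlapped between groups. TNRC6B changed by 0.93, the exporter XPO5 by 0.65, AGO1 by 0.51, AGO3 by 0.47, TRIM71 by 0.46 and the poly(A)-binding protein PABPC1 by 0.42. AGO2, the Argonaute that can cut its target, had a change of 0.41 (adjusted p = 0.084). TARBP2, the partner of Dicer, fell by 0.85 and RAN, the GTPase of nuclear export, by 0.54. Without input 2 of miR-23b 5 of the 21 rose, and AGO1 (highest adjusted p with 1 array left out 0.0808), XPO5 (0.230), TRIM71 (0.0716) and PABPC1 (0.174) did not pass. RAN was lost without input 2 or pull-down 2 (0.123) and AGO3 without input 1 (0.0829). Without the block 5 rose, and TNRC6B, XPO5, TRIM71 and PABPC1 did not pass. With miR-27a the median of the silencing list was 0.46.

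Among the list of enzymes that carry biotin and proteins that handle it, which streptavidin could also meet, 3 of 9 rose (33.3%) and 1 fell (11.1%), beside 24.5% and 20.2% of all genes. The 3 were ACACA, its mitochondrial relative ACACB (0.56) and the vitamin transporter SLC5A6 (0.37), and MCCC1 fell by 0.52. PC (0.20), PCCB (0.11), HLCS (-0.08), PCCA (-0.15) and MCCC2 (-0.29) did not pass. Without the block, or without input 2, 1 of them rose, ACACA.

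Transcripts for the translation and respiration machinery were mostly lower in the pull-down. Of 73 cytosolic ribosomal protein genes 41 fell (56.2%) and 10 rose (13.7%), with a median of -0.47. Of 76 mitochondrial ribosomal protein genes 50 fell (65.8%) and 4 rose, with a median of -0.80. Oxidative phosphorylation had 70 measured genes, 50 lower (71.4%) and 7 higher, with a median of -0.69. Each share of falls stands beside 20.2% over all genes, though bright genes fell more often. Of 10 bands of all genes by input level, the brightest had 39.3% lower and the next 30.0%. Median input levels of these lists, in the order given, were 13.76, 11.38 and 12.59. With miR-27a the medians of these lists were -0.50, -0.75 and -0.69, so the falls were shared with the other miRNA. Without the block 34, 44 and 40 fell. Rises were less stable, at 5 cytosolic genes without input 2, and 2 mitochondrial ribosomal and 4 respiratory genes without input 1, and at 6, 2 and 2 without the block. MRPL53 (-1.54), MRPL43 (-1.17) and MRPL40 (-1.60), of the large mitochondrial subunit, and ATP5MJ (-1.51), of ATP synthase, and NDUFA12 (-1.37), of complex I, had the smallest p-values among the falls of the mitochondrial ribosome and oxidative phosphorylation lists, besides NDUFA7.

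Exceptions within these groups were large. RPL7L1, a homologue of RPL7, measured 13.51 and 13.24 in the inputs and 14.29 and 14.48 in the pull-downs (1.01 ± 0.14). The list was drawn by gene symbol, and RPL7L1 is in it by its name alone. MRPS16, of the small mitochondrial subunit, measured 11.27 and 10.86 against 12.30 and 12.27 (1.22 ± 0.13). NDUFB6, of complex I, measured 11.07 and 11.62 against 12.48 and 12.73 (1.26 ± 0.12). These pull-downs were above both inputs. RPL37 (0.72), FAU (0.73), MRPS12 (0.71), MRPL45 (0.52), ATP5F1A (0.86) and NDUFB5 (0.80) rose too. MRPL45 and ATP5F1A did not pass without the block (adjusted p = 0.0522 and 0.179), and MRPL45 reached 0.0760 with 1 array left out (input 1, input 2 or pull-down 2).

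Transcripts of many ribosomal proteins start with a pyrimidine tract that couples their translation to growth signals, and the first bases of 3 members that moved and of RPL7L1 are shown for that reason. The windows run from 15 bases before to 15 bases after the RefSeq start (GRCh38.p14). Capitals mark matches to CTTTCC or CTTTTC or TCTTTC or CTCTTT or CTCTTC, motifs that overlap each other and were searched on the sense strand only. RPL26 lies at chr17:8383179-8383208 (minus), RPL36A at chrX:101390996-101391025 (plus), FAU at chr11:65122120-65122149 (minus) and RPL7L1 at chr6:42879601-42879630 (plus).
RPL26: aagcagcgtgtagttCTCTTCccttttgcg
RPL36A: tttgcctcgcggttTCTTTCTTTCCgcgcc
FAU: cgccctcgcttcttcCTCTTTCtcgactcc
RPL7L1: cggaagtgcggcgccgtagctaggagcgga
A match was found in 35 of 62 ribosomal protein windows (56.5%), against 421 of 7847 windows of all analysed genes (5.37%) and 1514 of 27305 windows in the whole table (5.54%). Within the ribosomal proteins it was found in 17 of 34 that fell, 4 of 8 that rose and 14 of 20 that did not pass. Their median change was -0.29 with a match and -0.62 without. Among other genes, 20.2% of those with a match fell and 19.9% of those without.

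Of 17 measured replication-dependent histone genes, whose transcripts end in a stem-loop instead of a poly(A) tail, 12 fell and 0 rose by limma (0 at an unadjusted p under 0.05), so that 70.6% were lower, beside 20.2% of all genes. The median was -0.55 (-0.57 with miR-27a), and no member had a change above 0 with miR-23b. H2AC18 measured 8.73 and 8.71 in the inputs and 7.36 and 7.54 in the pull-downs (-1.27 ± 0.12). Near-identical histone copies can share probes. Of 38 proteasome genes 19 fell (50%), such as PSME1 of the activator cap (-1.51), and 5 rose. Of 36 spliceosome genes of the Sm, LSm and U2 sets 16 fell (44.4%), such as SF3B5 (-1.09), and 4 rose, such as SNRPD3 (1.43). The median input level was 11.69 in the proteasome list and 11.94 in the spliceosome list. In the bands of all genes with these levels 30.0% and 39.3% fell. Without input 2, 8 histones, 13 proteasome genes and 9 spliceosome genes fell and 1 proteasome gene rose, and 2 spliceosome genes rose without input 1. Without the block 8, 10 and 10 fell, and 2 proteasome and 2 spliceosome genes rose.

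Of 20 HECT-type and other very large ubiquitin ligases 14 rose and 0 fell by limma (0 at an unadjusted p under 0.05), with 70.0% higher, beside 24.5% of all genes, and a median of 0.67. NEDD4L, which removes sodium channels from the membrane, measured 8.93 and 8.70 in the inputs and 9.69 and 9.60 in the pull-downs (0.83 ± 0.13). TRIP12 measured 8.89 and 9.44 against 10.15 and 10.05 (0.93 ± 0.16), and UBR3 8.06 and 8.29 against 8.80 and 9.02 (0.74 ± 0.11). Their groups did not overlap. Of the 6 that did not pass, WWP1 (-0.12) and WWP2 (-0.16) had changes below 0. With miR-27a the list had a median of 0.73, and the difference between the miRNAs passed for 0 of the 20. Without input 2 8 rose, and without the block 7.

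**Figure D4:**
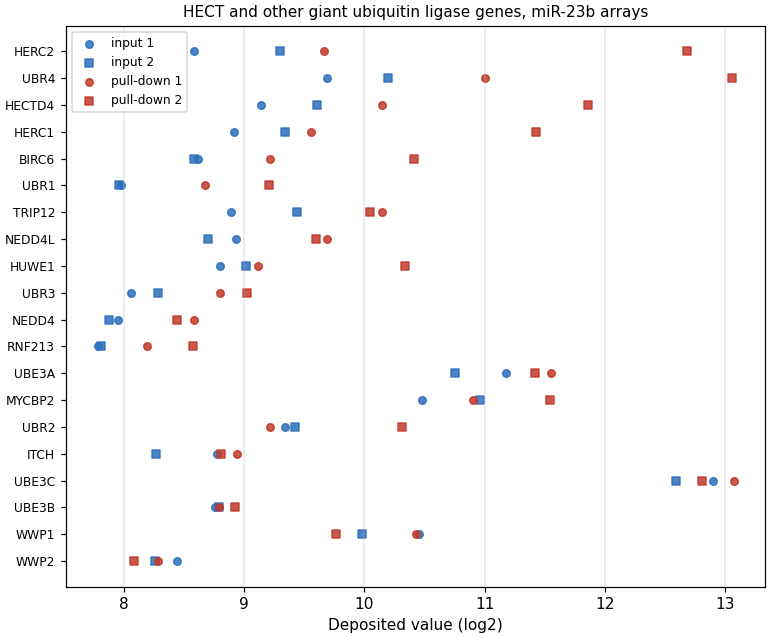
Deposited log2 values (x axis) of the 20 measured HECT-type and other very large ubiquitin ligase genes in each of the 4 miR-23b arrays, ordered by change. In HERC2, UBR4, HECTD4, HERC1 and BIRC6 the value of pull-down 2 stands more than 1 log2 unit above that of pull-down 1, as it does in HUWE1 and UBR2.

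Of 29 nuclear pore genes 13 rose (44.8%) and 3 fell (10.3%), with a median of 0.39, beside 24.5% and 20.2% of all genes. SEH1L, of the Y-shaped scaffold, measured 9.77 and 9.50 in the inputs and 11.41 and 10.97 in the pull-downs (1.55 ± 0.12), and NUP43 of the same scaffold changed by 1.27, whereas NUP50, a mobile pore protein, changed by -0.77. Zinc finger genes with a ZNF number rose in 83 of 260 cases (31.9%) and fell in 24 (9.23%), with a median of 0.16. ZNF70 (1.51), ZNF562 (1.43) and ZNF385A (1.42) had the smallest p-values among the rises and ZNF593 (-1.40) among the falls. Solute carriers rose in 51 of 138 (37.0%) and fell in 14 (10.1%), with a median of 0.16, such as SLC44A1, a choline transporter (1.16). Chromatin modifiers rose in 16 of 49 (32.7%) and fell in 5 (10.2%), with a median of 0.20, among them the acetyltransferase EP300 (0.84) and the Polycomb subunit SUZ12 (0.72). Without input 2 the rises numbered 7, 49, 27 and 4 in these 4 groups, and without the block 5, 56, 24 and 3. The falls were as few as 1 in the nuclear pore and 5 in the solute carriers without input 2, and 10 in the zinc fingers and 1 in the chromatin modifiers without input 1. EP300 did not pass without the block (adjusted p = 0.0884). With miR-27a the medians were 0.24 in the nuclear pore, 0.13 in the zinc fingers, 0.05 in the solute carriers and 0.04 in the chromatin modifiers. Over all genes the miR-27a median was -0.04.

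**Figure D5:**
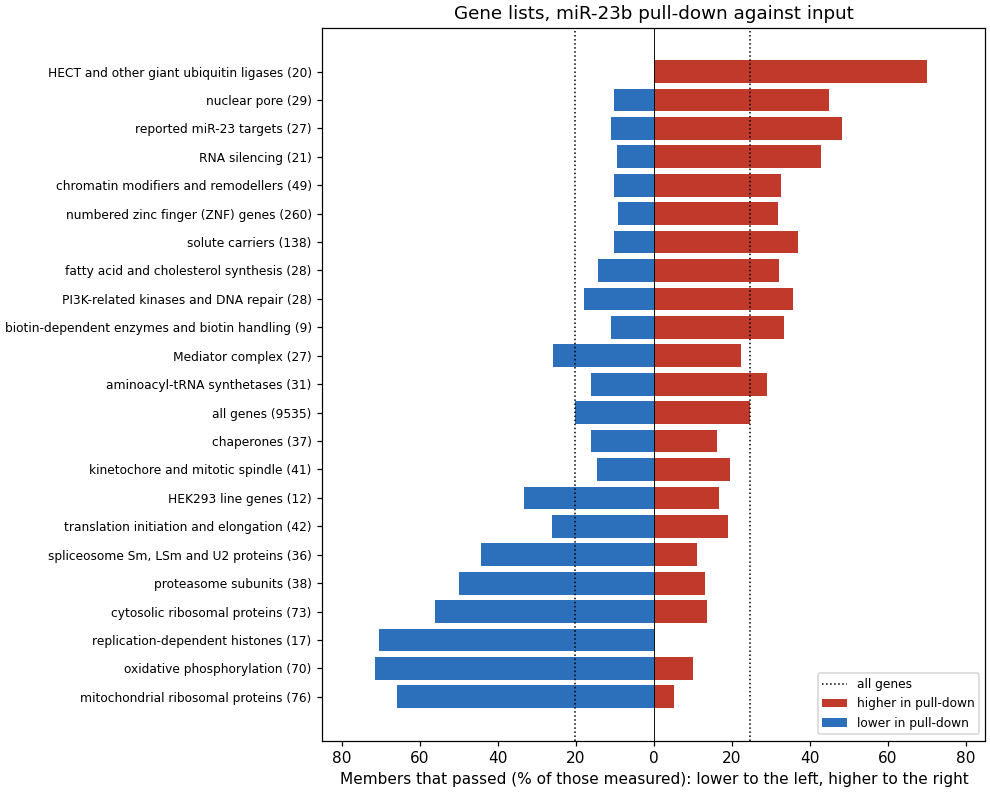
Share of measured members (number in brackets) that passed, with lower in the pull-down drawn to the left and higher to the right (x axis, % of measured members), and dotted lines at 20.2% lower and 24.5% higher for all genes. Oxidative phosphorylation, the histones and both kinds of ribosomal protein extend furthest to the left, and the ubiquitin ligases furthest to the right at 70.0%.

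In 7 further lists 16.2% to 35.7% of members were higher and 14.3% to 26.2% lower, beside 24.5% and 20.2% of all genes. In the Mediator complex, which links transcription factors to RNA polymerase II, 6 of 27 rose and 7 fell, with a median of 0.10. By smallest p, MED23 (0.85), MED14 (0.60) and MED1 (0.56) rose, and MED30 (-1.26), MED27 (-1.02) and MED19 (-0.80) fell. The largest rise was that of MED12 (1.89 ± 0.43), named after its values were seen, with paired differences of 0.95 and 2.82. With 1 array left out the Mediator median ran from -0.09 to 0.19. Of 42 translation factors 8 rose, such as EIF1AX (1.36) and the cap-binding EIF4E (1.28), and 11 fell, such as EIF3H (-1.14). Of 31 aminoacyl-tRNA synthetases 9 rose, such as IARS2 (0.99), and 5 fell, such as KARS1 (-1.11). Chaperones rose in 6 of 37 and fell in 6, the latter with HSPE1, the mitochondrial co-chaperonin (-1.32). Kinetochore and spindle genes rose in 8 of 41, after MIS12 with the motor KIF11 (1.14), and fell in 6, with SPC25 (-0.95). Fatty acid and cholesterol genes rose in 9 of 28, among them the desaturase SCD (0.63), and fell in 4, with PMVK of the mevalonate pathway (-0.92). Of 28 genes of DNA repair and PI3K-related kinases 10 rose and 5 fell.

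These smaller counts depended on the fit. Without input 2 the rises were 3 in Mediator, 3 in translation factors, 2 in synthetases, 5 in the lipid genes and 3 in DNA repair, and the falls were 6 in translation factors, 3 in synthetases, 2 in the kinetochore and 1 in DNA repair. Without input 1 the rises were 2 in chaperones and 4 in the kinetochore, and the falls 3 in chaperones and 2 in the lipid genes. Without the block the rises were 4, 4, 4, 5 and 2 in the first 5 groups named, 3 in chaperones and 5 in the kinetochore, and the falls were 7, 4, 4, 2 and 1, with 2 chaperones and 1 kinetochore gene.

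Some genes were enriched far more in pair 2 than in pair 1. HERC2, a giant ubiquitin ligase, measured 8.58 and 9.30 in the inputs and 9.67 and 12.68 in the pull-downs. ESPL1, the separase that cuts cohesin, measured 9.12 and 9.37 against 9.81 and 12.27. PRKDC, which joins broken DNA ends as the kinase DNA-PK, measured 10.62 and 10.43 against 11.88 and 13.66. In each, pull-down 2 stood apart from the other 3 arrays. The paired differences were 1.09 and 3.39 for HERC2, 0.70 and 2.90 for ESPL1 and 1.26 and 3.23 for PRKDC, and SEs were 0.51, 0.49 and 0.39. DYNC1H1, the heavy chain of cytoplasmic dynein, had differences of 0.16 and 2.40 and did not pass (adjusted p = 0.0515).

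Over all genes, the difference of pair 2 minus that of pair 1 had a median of 0.05 and a 5% to 95% range of -0.45 to 0.55, and 52 genes exceeded 1 while 13 lay below -1. The 14 with the highest value, taken after their values were seen, were HERC2, DYNC1H1, ESPL1, PRKDC, MED12, HEATR5B, BSN, DYNC2H1, UBR4, ZZEF1, TRRAP, MDN1, HERC1 and GBF1. With the block 12 of them rose and without it 3, beside 24.5% and 13.4% of all genes. Their choice by a high pair 2 favours a rise. HERC2, UBR4, PRKDC, MDN1, BSN and the dyneins are known as very large proteins, and lengths were not measured here. UBR4 had paired differences of 1.31 and 2.86, and TRRAP, the scaffold of histone acetyltransferase complexes, of 1.04 and 2.52. With miR-27a the 14 had a larger difference in pair 2 as well, by 0.35 to 1.84, and the share over all genes was not computed. Over probes, the shift from replicate 1 to 2 correlated at 0.659 between the pull-downs of both miRNAs and at 0.795 between their inputs. The miR-27a values are thus not an independent check. Among the 20 ubiquitin ligases the value was above 0 in 15 (56.4% of all genes had a value above 0), with a median of 0.32, and 17 had both differences above 0. With pull-down 2 or input 2 left out, HERC2 (highest adjusted p = 0.0688), ESPL1 (0.173), HERC1 (0.0975) and HUWE1 (0.311) did not pass, and DYNC1H1 reached 0.471. RNA18SN5, the 18S ribosomal RNA, also chosen after its values were seen, differed between pairs in the same sense at a fall, from 12.35 and 11.66 in the inputs to 10.36 and 10.90 in the pull-downs, and did not pass without pull-down 1 (adjusted p = 0.0529).

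The miR-23b changes were then set against those with miR-27a. In the miR-27a comparison 26.4% of genes rose and 27% fell. Of the 2338 genes higher with miR-23b, 1727 were also higher with miR-27a and 94 were lower, and of the 1923 lower with miR-23b, 1493 were also lower and 35 were higher. The difference between the changes passed for 614 probes (4.24%), 415 above 0 (2.87%) and 199 below 0 (1.37%), and for 69 without the block (0.477%). By gene it passed for 446 (4.68%), 305 above 0 (3.2%) and 141 below 0 (1.48%), and for 52 without the block (0.545%). Among genes higher with miR-23b it was above 0 for 165 and below 0 for 38, and among genes lower with miR-23b it was below 0 for 59 and above 0 for 8. Choosing genes by their miR-23b change, which is part of the difference, favours an excess in that direction.

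The genes that differed most between the miRNAs were of varied function. OXA1L, an insertase of the inner mitochondrial membrane, measured 10.02 and 10.32 in the miR-23b inputs and 11.67 and 11.78 in the pull-downs, a rise of 1.55 ± 0.12, and changed by -0.80 with miR-27a. CXXC5 rose by 1.74 and changed by -0.30 with miR-27a. In both, the miR-27a pull-downs (9.40 and 9.37 for OXA1L, 10.75 and 10.69 for CXXC5) lay below both miR-23b pull-downs. C15orf61 (1.24 with miR-23b, -0.87 with miR-27a), the peroxisomal membrane protein PXMP2 (1.29, -0.74), the endolysosomal RNASEK (1.20, -0.75) and FAU, a fusion of a ubiquitin-like protein with ribosomal protein S30 (0.73, -1.26), followed.

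In the opposite direction, MAIP1, a mitochondrial matrix protein, measured 10.33 and 10.45 in the miR-23b inputs and 9.47 and 9.04 in the pull-downs, a fall of 1.14 ± 0.15, and rose by 2.03 with miR-27a. SNN (-0.63, 2.13), GTF2H5 of the repair and transcription factor TFIIH (-0.87, 1.67), ATP5PO of ATP synthase (-1.18, 1.09), MRPS18C (-1.32, 0.71) and NDUFA13 of complex I (-1.16, 0.86) followed in the same order of changes. The fall of SNN with miR-23b was lost without pull-down 1 or input 2 (highest adjusted p = 0.135) and without the block (0.0572).

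The share of genes that passed varied with the level in the input. Genes were ordered by mean input value and divided into 10 bands of equal number. In the dimmest band (7.35 to 7.71) 13.2% rose and 1.26% fell, and in the brightest (11.85 to 14.80) 23.3% rose and 39.3% fell, with a median change of -0.15. Median SEs were alike, at 0.12 in both bands. The input value that set the bands also enters the change, so some tilt toward falls at high input is built in. Values of the dimmest band lie near the lowest of the arrays, which leaves little room for a fall. Probes without a single gene name, 2471 in all, rose in 18.0% and fell in 27.9%. Of 2104 genes with several probes, 1274 had a probe that passed, 271 had all probes higher, 308 all lower and 39 had probes that passed in opposite directions. For the 1790 genes with 2 probes the changes of the probes correlated at 0.771 over genes. Over the 2104 genes with several probes the median range of changes between probes of a gene was 0.22.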

How the data were processed

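The authors' deposited values, on a log2 scale, were used for 14479 probes on 8 Illumina 1-colour bead arrays. The submitters' processing notes name lumi 2.2.1, while transformation, normalization and probe choice are stated nowhere in the sources used here. A table of non-normalized signals was not used, since 16 columns (8 signals, 8 detection p-values) carry names that match no sample, so signal over background is unknown.

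Platform annotation gave 1 gene to 12008 probes, several to 2 and none to 2469. Entrez identifiers of 12006 probes were found in RefSeq (GRCh38.p14) with 0 symbols changed. The probe of highest mean over 8 arrays stood for its gene.

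Changes were tested across all probes with limma 3.58.1 in R 4.3.3, with 4 group means and the replicate number as a block (3 residual degrees of freedom), two-sided, with Benjamini-Hochberg adjustment over 14479 probes and a threshold of 0.05. SE is the moderated standard error, with the residuals of all 8 arrays taken as independent. The script was tested on simulated data. Over 6 pairs of groups the difference of replicate 2 minus replicate 1 correlated at 0.339 to 0.795 across probes, so same-numbered arrays were treated as pairs, from the values and from the shared numbers in the labels. Alternatives were the fit without the block (4 residual degrees of freedom), 4 arrays only, another scaling, a filter on dim probes, an intensity trend, the mean over the probes of a gene, and each array left out. The comparison and the gene lists were chosen with earlier results of these data known, so list counts are descriptions.

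Named genes were the 16 rises and 16 falls among called genes with the largest smaller paired difference, reported targets that passed, SMAD genes, XIAP, FOXO3, up to 3 members a list and direction by p, the silencing and biotin lists, the 6 genes a direction that differed most from miR-27a, and the 4 whose pairs disagreed most. Other genes are named as chosen after their values were seen, which also holds for HUWE1, HECTD4, BIRC6, HERC1, UBR2, WWP1 and WWP2.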

Additional observations from a re-analysis of the deposited data

Results flagged for a closer look

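The following results differ between the miRNAs, in that limma's test of the miR-23b change minus the miR-27a change passed at the threshold, for genes that the comparison names. No group held enough arrays for a search for single arrays that stand apart. The difference was positive for OXA1L (2.36), C15orf61 (2.12), CXXC5 (2.04), PXMP2 (2.03), FAU (1.98) and RNASEK (1.96), each with a rise with miR-23b and a negative change with miR-27a. Smaller positive differences were seen for MRPS12 (1.498), SLC35A4 (1.42), HMGB2 (1.20), ZNF385A (1.19), NNT (1.15), NUP37 (1.07), SNRPA1 (1.02), NDUFB6 (0.98), BAG4 (0.94), NDUFB5 (0.79), MRPL45 (0.77) and ATP5F1A (0.75). It was negative for MAIP1 (-3.17), SNN (-2.76), GTF2H5 (-2.54), ATP5PO (-2.27), MRPS18C (-2.04) and NDUFA13 (-2.02), which fell with miR-23b and rose with miR-27a. NDUFA7 (-1.35), MED27 (-1.17), MRPS16 (-1.14), RAN (-0.98), KLHL23 (-0.93) and ZNF562 (-0.71) also had negative differences. NDUFA7 fell with both miRNAs, MRPS16, KLHL23 and ZNF562 rose more with miR-27a, and RAN fell with miR-23b and rose with miR-27a. Of these 30 differences, 17 did not pass without the replicate block, C15orf61 and HMGB2 among them, and 13 did not pass with some single array left out.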

How the results depend on the processing

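The replicate block and the choice of arrays moved the counts. With no replicate block, 1741 probes were higher and 1772 lower with miR-23b, in place of 3194 and 3195, and the difference between the miRNAs passed for 32 probes above 0 and 37 below 0, in place of 415 and 199. Leaving out each array gave 1657 to 3162 higher, 1767 to 3206 lower, 119 to 322 differences above 0 and 68 to 128 below 0, the lowest each time without input 2 of miR-23b. Scaling each array to one median, quantile normalization, leaving out dim probes, an intensity trend and, for the miR-23b change, its 4 arrays alone kept these counts within 1.5 times. With the mean over all probes of a gene, 229 of the gene changes checked kept their call, 4 no longer passed and 3 newly passed. In that setting 6 list medians moved by at least the spread between their pairs and 16 did not. No change or difference of a named gene turned its direction where it had passed. The planned analysis of non-normalized signals was not run because their columns match no sample, and the planned descriptions by protein length and by seed site in the 3′ untranslated region were not made because no protein or transcript table was used. With 2 arrays a group, signal over background unknown and the transformation not stated, small changes of dim probes are the least certain.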
